A study of Mus musculus with 8 samples.

Results

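The genes described here are 10 that mark or make the marrow niche: the secreted or membrane-bound factors Cxcl12, Kitl, Il7, Csf1 and Angpt1, the adhesion molecule Vcam1, the transcription factors Foxc1, Ebf1 and Ebf3, and the leptin receptor Lepr. The genes were chosen with earlier results of these data known. They were taken by name, with every probe set that the array annotation gives to one of these symbols, and no measured value chose among the probe sets. This gave 32 of the 45101 probe sets on the array, and 10 of the 18193 genes named there. Of these, 27 probe sets of 9 genes reached an intensity of 100 on at least 2 of the 8 arrays and were tested. The other 5 were the 4 probe sets of Lepr and 1 of the 5 for Ebf1.

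Affymetrix mouse arrays were used to measure RNA from 4 groups of cultured mouse cells, with 2 arrays in each. The first group was OP9, a stromal line of strain B6C3F1, grown with 230-238, a line of pre-B cells, and the second was OP9 without them. The others were MC3T3, labelled as osteoblast-like, and NIH3T3, labelled as embryonic fibroblasts, for both of which the labels give the strain Balb/c. The question was how contact with pre-B cells changes stromal RNA, and how a stroma that supports B-lymphoid cells differs from other lines. Per the study's methods the OP9 cells carried the fluorescent protein mStrawberry, were in co-culture for a week and were recovered by sorting. A culture in conditioned medium is described there as its control, and the labels of the OP9 arrays, which read OP9 culture, do not say whether these are those cells. Replicate 2 of MC3T3 is described as sorted cells, replicate 1 as a culture. Each group is a single line, and its 2 arrays are labelled as biological replicates. Those of OP9 are called experiments in the study's legends, but nothing says that each array came from a culture of its own. The p-values below set a difference between groups against how far the 2 arrays of a group lie apart, estimated over all 4 groups together. That spread may be technical where 2 arrays share a culture. OP9 was derived from op/op mice, whose Csf1 allele gives no functional protein, so that the Csf1 values here are of a transcript alone.

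In the marrow, B-lymphoid and stem cells are held in place by reticular stromal cells that secrete the chemokine CXCL12 in abundance. The same cells carry kit ligand, the growth factor that stem and progenitor cells read through KIT, and some of them make interleukin 7, on which developing mouse B cells depend. VCAM1 binds the integrin VLA-4 on lymphoid cells, M-CSF from Csf1 drives macrophages and osteoclasts, and angiopoietin 1 acts on the receptor TEK. In mice FOXC1, EBF1 and EBF3 are transcription factors on which these reticular cells depend, and LEPR is a surface receptor by which the cells are recognised in adult marrow. EBF1 is also a factor of the B lineage itself.

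The median intensity per array was 41.6 to 44.9, and an intensity of 100 was reached by 34.3 to 36.3% of probe sets. Replicates correlated over probe sets with r of 0.9972 in co-culture, 0.9974 in OP9, 0.9957 in MC3T3 and 0.9877 in NIH3T3 cells, and probe sets are not independent replicates. The NIH3T3 arrays stood apart. Their lys, phe and thr control probe sets averaged 12514 and 13272, against 114 to 310 on the other arrays, and their 18S probe sets 6123 and 6264, against 121 to 330, so that line and preparation cannot be told apart for NIH3T3. Of the fibroblastic marker list 9 to 10 of 10 genes reached 100 on both arrays in each group. Of the 10 osteoblast markers 7 were measured, and in MC3T3 cells 2 of these 7 did, Dmp1 and Col1a1. Alpl, Sp7 and Ibsp, which define osteoblasts, did not. Dmp1 read 969.7 and 1142 in MC3T3, against 58.33 and 61.94 in OP9 and 10.65 and 11.34 in NIH3T3. The 1 leukocyte marker that reached 100 in MC3T3 was Arhgdib, at 3933 and 3726.

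**Figure D1:**
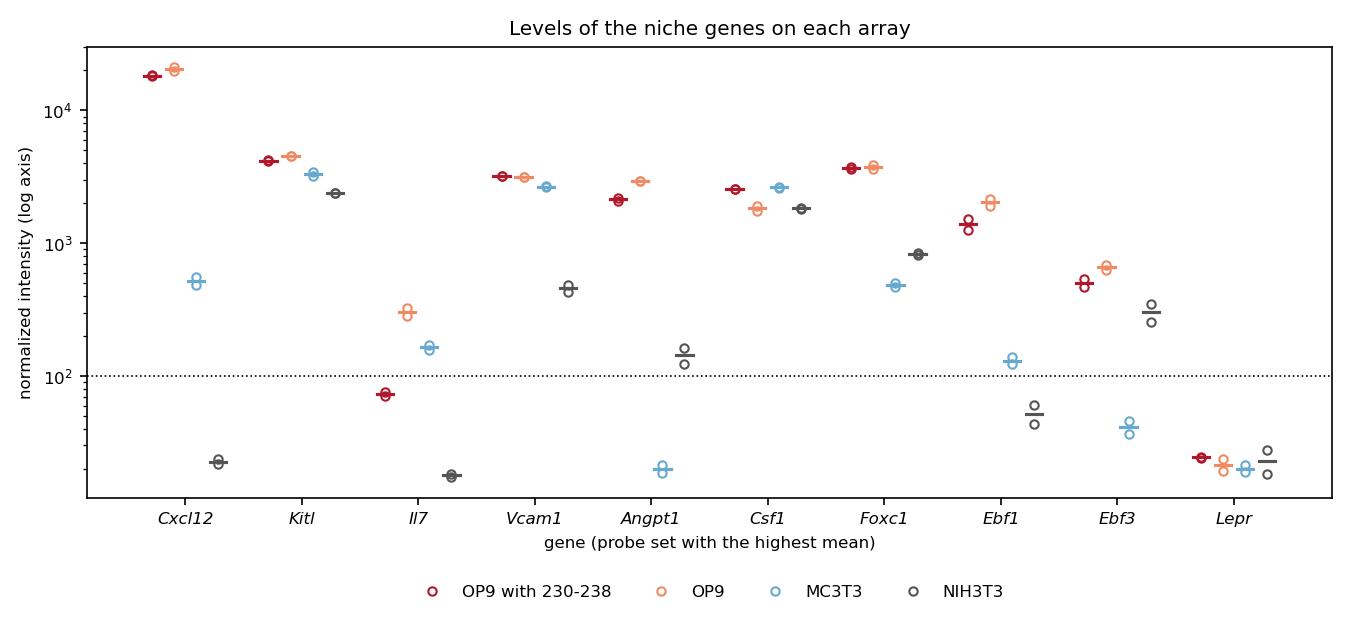
Normalized intensity (log axis) of the probe set with the highest mean for each of the 10 genes, with 1 circle per array, a bar at the mean of the 2 arrays, and a dotted line at 100. Cxcl12 stood at 18257 or more in both OP9 groups and below 24 in NIH3T3, Il7 in co-culture lay between OP9 and NIH3T3, and Lepr stayed below 28 on all 8 arrays.

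In co-culture most of these genes lay within 2-fold of their level in OP9 cells, and Il7 was the exception. Il7 fell to 24.3% and 24% of its OP9 level on its 2 probe sets. Csf1 rose modestly on all 4 of its probe sets, both probe sets of Angpt1 and 2 of 4 for Ebf1 fell by less than 2-fold, and neither probe set of Foxc1 and none of the 3 for Vcam1 passed the test. A probe set was called at an adjusted p under 0.05 in limma together with a change of at least 2-fold, and is said to have passed at that adjusted p alone. Of the 27 probe sets 0 were called higher and 2 lower, beside 2.44% and 2.93% of all 18656 tested and 5.37% in either direction. At an unadjusted p under 0.05, 5 were higher and 10 lower, 55.6% of the 27, beside 46.8% of all (17.7% higher and 29.1% lower). Passing at any size were 4 higher and 7 lower, 40.7% of the 27, beside 37.5% of all probe sets (14.1% higher and 23.4% lower), so the share that passed was close to the background. The arrays of the 2 groups did not overlap for 25 of the 27, beside 78.8% of all probe sets. The median log2 difference was -0.28 over the 27 and -0.06 over all. Without the NIH3T3 arrays, a choice made after the data were seen, 5 passed higher and 13 lower, 66.7% beside 50.7% of all, with the same differences and a smaller estimated spread. The 2 probe sets called were then still 2.

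**Figure D2:**
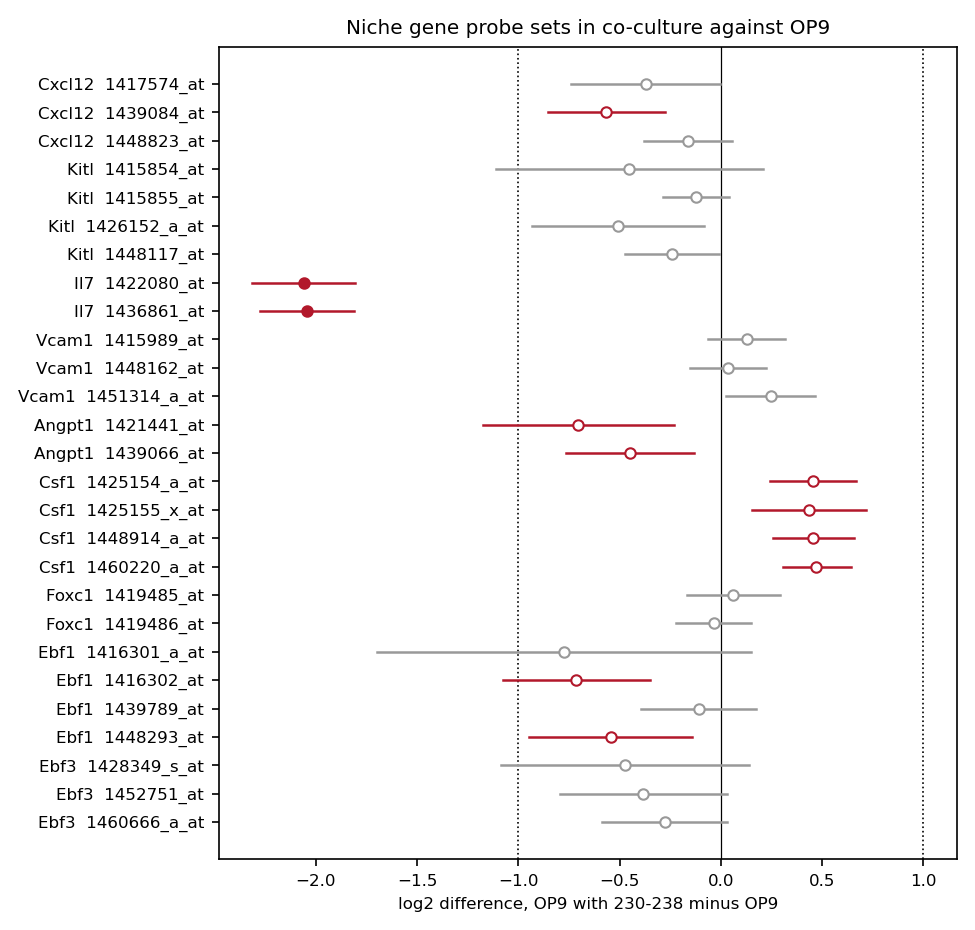
Log2 difference of OP9 with 230-238 minus OP9 for each of the 27 probe sets, with its 95% interval from limma. Filled points are called, red ones passed at an adjusted p under 0.05, grey ones did not, and dotted lines mark 2-fold. Only the 2 probe sets of Il7 lie past 2-fold, and the 4 of Csf1 are the only ones that passed on the higher side.

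Il7 encodes the cytokine interleukin 7. Probe set 1436861_at read 76.4 and 70.8 in co-culture, against 325 and 283 in OP9, 172 and 157 in MC3T3 and 17.3 and 18.4 in NIH3T3. Both co-culture arrays thus lay below 100, under both MC3T3 arrays and well above both NIH3T3 arrays. The mean in co-culture was 24.3% of that in OP9 (95% interval 20.7 to 28.5%), a log2 difference of -2.04 with a standard error of 0.10 and an adjusted p of 1.69e-05 in limma. The second probe set, 1422080_at, read 32.1 and 36.8 in co-culture, against 138 and 149 in OP9, 103 and 110 in MC3T3 and 15.4 and 13.3 in NIH3T3. Its log2 difference was -2.06 (adjusted p = 2.24e-05 in limma), so that 2 probe sets at different levels gave changes of like size in the main fit. The co-culture values of 1422080_at lay below the medians of their arrays, 43.5 and 43.0, so that its fold is not firm in size. Over the alternatives its difference ranged from -2.16 to -1.66, and that of 1436861_at from -2.14 to -1.83. All 3 steps in the order OP9, MC3T3, co-culture and NIH3T3 passed the test on both probe sets, and in co-culture Il7 was 2.23-fold lower than in MC3T3 on 1436861_at. On both probe sets OP9 cells thus lay below MC3T3 in co-culture, and above it without pre-B cells.

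Csf1, which encodes M-CSF, moved the other way. Probe set 1460220_a_at read 2544 and 2542 in co-culture, against 1764 and 1904 in OP9, 2625 and 2664 in MC3T3 and 1821 and 1853 in NIH3T3. It rose 1.39-fold (log2 difference 0.47, 95% interval 0.30 to 0.64, adjusted p = 0.00236 in limma) and in co-culture stood within 0.06 log2 units of MC3T3. The other 3 probe sets rose by log2 differences of 0.46, 0.45 and 0.44, with adjusted p of 0.00584, 0.00733 and 0.0266 in limma. The last of these, 1425155_x_at, is of a kind that can bind related transcripts and read 194 and 215 in co-culture, against 162 and 140 in OP9. Co-culture was also close to MC3T3 on 1448914_a_at (log2 difference -0.01). It stayed below MC3T3 on 1425154_a_at and 1425155_x_at, at -0.447 and -0.997 (adjusted p = 0.0033 and 0.00024 in limma). The 4 probe sets share a transcript and are not 4 independent results. Their arrays did not overlap between co-culture and OP9 in any of the 4. The adjusted p of 1460220_a_at and 1448914_a_at stayed under 0.05 in each of 19 and 17 alternatives, with highest values of 0.0262 and 0.0494. That of 1425154_a_at was over 0.05 in 1 of 17, without OP9 replicate 2 (0.0574), and that of 1425155_x_at lay between 0.00839 and 0.161.

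The genes of the NF-kB feedback and target list, which can mark signalling through that factor, were called higher in co-culture for 9 of 10 tested. This list was chosen with earlier results of these data known, so that the count is a description, and NF-kB signalling itself was not tested. The list median was a log2 difference of 2.33, beside -0.06 over all probe sets, of which 2.44% were called higher. Traf1, an adaptor of tumour necrosis factor receptors, entered the test through co-culture alone, at 134.7 and 116.7 there, against 21.1 and 20.3 in OP9, so that its call was bound to the filter. Without it 8 of 9 were called, with a median of 2.18. Nfkbie, an inhibitor of NF-kB, was 14.6-fold higher at 2298 ± 23.6 in co-culture and 158 ± 12.7 in OP9 (SD, n = 2 each), and the chemokine gene Ccl2 10.7-fold higher. Icam1, an adhesion molecule of the same family as VCAM1, rose 6.97-fold. Nfkbiz, at 1.25-fold, was the 1 not called and was named after its value was seen. Vcam1, often counted among genes that inflammatory signals induce in endothelium, stood at 3224 and 3214 in co-culture, against 3130 and 3149 in OP9.

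The 250 bases before the annotated start of 3 of the 10 genes are shown because they are, in this order, the gene that rose, a gene with 2 probe sets that fell, and the gene with the highest level in OP9. They are from RefSeq on GRCm38.p6. The Csf1 window is chr3:107760470-107760719 on the minus strand, the first of the 2 for Ebf1 chr11:44617850-44618099 on the plus strand and that of Cxcl12 chr6:117168285-117168534 on the plus strand. Capitals mark the letters GGGNNNNNCC, a loose form of the NF-kB site, on either strand, and adjoining matches run together.
Csf1: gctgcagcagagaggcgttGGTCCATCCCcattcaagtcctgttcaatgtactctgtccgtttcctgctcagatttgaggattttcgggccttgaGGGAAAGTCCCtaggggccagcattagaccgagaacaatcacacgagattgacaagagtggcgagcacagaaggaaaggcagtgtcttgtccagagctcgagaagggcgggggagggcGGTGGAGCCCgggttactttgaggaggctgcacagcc
Ebf1: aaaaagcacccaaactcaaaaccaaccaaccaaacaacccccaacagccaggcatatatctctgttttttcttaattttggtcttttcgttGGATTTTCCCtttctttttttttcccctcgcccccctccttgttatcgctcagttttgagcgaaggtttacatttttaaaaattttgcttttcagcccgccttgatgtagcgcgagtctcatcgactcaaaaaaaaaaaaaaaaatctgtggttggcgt
Cxcl12: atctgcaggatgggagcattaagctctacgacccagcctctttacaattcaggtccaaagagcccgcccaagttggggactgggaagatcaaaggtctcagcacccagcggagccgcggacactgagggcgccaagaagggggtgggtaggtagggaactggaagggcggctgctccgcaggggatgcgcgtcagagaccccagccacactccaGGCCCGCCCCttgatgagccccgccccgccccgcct
The Csf1 window held 4 such matches before the start and 1 after it. The 2 that overlap, at 155 to 146 and at 154 to 145 bases before the start, are on opposite strands and share 9 bases. The Ebf1 window shown held 1 match, 159 to 150 bases before the start, and the second Ebf1 window, at chr11:44619978-44620227, held 0. The Cxcl12 window held 1, 36 to 27 bases before the start. These letters are common: 50.8% of the 32851 mouse promoter windows of 300 bases held at least 1 match, and 7 of the 9 windows found for 7 of the 10 genes did. The EBF site, searched as TCCCNNGGGA on both strands, was in 0.9% of all windows and in 0 of these 9, and the forkhead letters TGTTTNC on both strands were in 20.5% and in 0 of the 9. Windows for Il7, Vcam1 and Angpt1 were not analysed here.

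Cxcl12, the chemokine that gives these reticular cells their usual name, kept its place at the top of the scale. Probe set 1448823_at read 18390 and 18257 in co-culture, against 19989 and 21062 in OP9, where it ranked 10 and 14 among all probe sets of the array. Co-culture was at 89.3% of OP9 (95% interval 76.9 to 104%), which did not pass (adjusted p = 0.206 in limma). The second probe set, 1417574_at, read 14627 and 14252 in co-culture, against 18981 and 18379 in OP9, a log2 difference of -0.37 with an adjusted p of 0.104. The third and dimmest, 1439084_at, read 114 and 117 in co-culture, against 181 and 162 in OP9, and fell by 0.57 on the log2 scale (adjusted p = 0.0108). On all 3 probe sets both co-culture arrays lay below both OP9 arrays, but the size of the difference grew as the level of the probe set fell. The highest value on any array was 25141, and whether the top of the scale holds back the 2 bright probe sets was not tested. Without the NIH3T3 arrays, 1417574_at had an adjusted p of 0.00426. The fall of 1439084_at lost its adjusted p without either co-culture array (0.0656 and 0.0555) or without OP9 replicate 1 (0.0789).

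Kitl, which encodes kit ligand, was lower in co-culture on all 4 of its probe sets, and none of them passed. Probe set 1415855_at read 4209 and 4150 in co-culture, against 4578 and 4528 in OP9, or 91.8% of it (95% interval 82.1 to 103%). The log2 differences of the other 3 were -0.24, -0.45 and -0.51, with adjusted p of 0.0972, 0.246 and 0.0626 in limma. As with Cxcl12, the dim probe sets gave the larger differences, with 1426152_a_at at 164 and 148 in co-culture, against 216 and 228 in OP9. Both dim probe sets varied between the NIH3T3 arrays, with 83.6 and 165.8 for 1415854_at, and without these arrays their adjusted p were 0.00575 and 0.0035.

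Vcam1 lay close to its OP9 level. Its probe set 1448162_at gave 103% of OP9 in co-culture (95% interval 89.9 to 117%, adjusted p = 0.757 in limma). The other 2 had log2 differences of 0.13 and 0.25, with adjusted p of 0.257 and 0.0772. The adjusted p of the second of these, 1451314_a_at, was under 0.05 in 6 of 17 alternatives, among them 0.0469 without the NIH3T3 arrays and 0.0326 with the 4 arrays alone, and was 0.354 without OP9 replicate 1. The interval of each of the 3 lies within a log2 difference of 0.47 of 0. Over all probe sets 2.44% were called higher in co-culture and 2.93% lower. Of the adhesion molecule list, 1 of 9 tested genes was called higher, which was Icam1, and 2 lower. These were Alcam, a ligand of CD6, at 43.4 ± 11.7 in co-culture and 136 ± 0.73 in OP9 (SD, n = 2 each), and Ncam1, which was 2.06-fold lower.

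Angpt1, the ligand of TEK, fell on both probe sets. Probe set 1439066_at read 2204 and 2081 in co-culture, against 2921 and 2918 in OP9, 73.4% of it (95% interval 58.9 to 91.3%), with an adjusted p of 0.0365 in limma. Probe set 1421441_at read 1237 and 1342 in co-culture, against 1958 and 2245 in OP9, a log2 difference of -0.70 with an adjusted p of 0.0305. Both passed without being called, and both adjusted p lay close to the threshold. Leaving out any 1 of the 4 arrays compared raised the adjusted p to between 0.108 and 0.161 for 1439066_at and to between 0.0801 and 0.157 for 1421441_at, with the differences between -0.80 and -0.41, while the 4 arrays alone gave 0.00159 and 0.000873. Without either MC3T3 array the adjusted p of 1439066_at was 0.0511, and with no filter those of both were 0.0863 and 0.0614.

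Of the 3 transcription factors, Foxc1 showed the smallest differences. Probe set 1419486_at read 3592 and 3735 in co-culture, against 3626 and 3881 in OP9, and 1419485_at read 1781 and 1940 in co-culture, against 1749 and 1815 in OP9. The arrays overlapped on both probe sets, which made them the only 2 of the 27 to do so. Co-culture was at 97.7% of OP9 on 1419486_at (95% interval 85.9 to 111%), and the sign of the difference was not settled.

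Ebf1 gave an uneven picture over its probe sets. Probe set 1448293_at read 1267 and 1531 in co-culture, against 2146 and 1922 in OP9, and fell to 68.6% (95% interval 51.9 to 90.5%, adjusted p = 0.0417 in limma). Probe set 1416302_at read 512 and 581 in co-culture, against 900 and 888 in OP9, and fell by 0.71 on the log2 scale (adjusted p = 0.0105). Probe set 1416301_a_at had the largest difference, -0.77, at 453 and 459 in co-culture against 735 and 827 in OP9, but did not pass (adjusted p = 0.164), with NIH3T3 arrays at 34.9 and 87.1. Without those arrays its adjusted p was 0.00739. The fourth, 1439789_at, read 525 and 506 in co-culture, against 554 and 558 in OP9, a difference of -0.11 with an interval of -0.39 to 0.17. That interval does not reach the differences of the other 3, but it overlaps their intervals. Whether the probe sets differ from one another was not tested. What part of the transcript each probe set reads was not analysed here. The adjusted p of 1448293_at was over 0.05 in 9 of 20 alternatives, at 0.0654 to 0.219 without each of the 4 arrays compared, 0.0637 without either MC3T3 array, 0.0716 after quantile normalization, 0.0872 with no filter and 0.052 with the replicate number as a block. That of 1416302_at was over 0.05 without co-culture replicate 1 (0.0747), OP9 replicate 1 (0.062) or OP9 replicate 2 (0.0583).

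Since pre-B cells also use Ebf1, their markers are given beside it. Of 18 pre-B markers 16 were measured, and 0 of these reached 100 on both arrays in co-culture or in OP9. Their summed level was 672 to 694 in co-culture and 451 to 475 in OP9. In the lines grown without pre-B cells it was 481 to 521 in MC3T3 and 722 to 725 in NIH3T3, so that the sum is not particular to co-culture. The NIH3T3 sum holds Blnk at 132.0 and 232.1 and Igll1 at 144.3 and 101.5, and single markers can differ from the sum. Both co-culture arrays lay above both OP9 arrays for 12 of the 16, with folds over all 16 from 0.866 (Fcmr) to 4.35 (Pou2af1) and a median log2 difference of 0.36. The other 4, Rag1, Dntt, Blk and Fcmr, overlapped, with Dntt at 31.8 and 31.8 in co-culture, against 31.4 and 32.0 in OP9. Over all probe sets tested, 78.8% did not overlap between these groups in either direction. The share on the higher side alone was not counted, so that 12 of 16 has no like share beside it. Of the 16 markers 0 lay below OP9 on both arrays, and of the 10 leukocyte markers 9 lay above and 0 below. Only 2 of the 16 markers passed the filter, Igll1 and Blnk, both through the NIH3T3 arrays alone. Vpreb1 and Mzb1 reached 100 on no array and were not tested. Vpreb1, part of the surrogate light chain of pre-B cells, read 77.7 and 76.1 in co-culture, against 25.8 and 21.6 in OP9, and Mzb1 read 97.3 and 95.7, against 41.8 and 39.8. On the MC3T3 and NIH3T3 arrays Vpreb1 read 21.97 to 30.13 and Mzb1 31.43 to 34.65, below co-culture. The leukocyte list summed to 690 to 732 in co-culture and 374 to 375 in OP9, with 3 of 10 and 0 of 10 genes at 100 on both arrays, among them Coro1a at 116 and 125 in co-culture, against 26.0 and 23.9 in OP9. The part of pre-B RNA in any of the 10 genes was not tested, and fewer cells of a type cannot be told apart from less RNA per cell in such bulk samples. Macrophage markers summed to 639 to 678 in co-culture and 547 to 592 in OP9, and endothelial markers to 383 to 443 in co-culture and 398 to 419 in OP9. Fat cell markers summed to 11897 to 12002 in co-culture and 36377 to 36506 in OP9.

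Ebf3 was lower in co-culture on all 3 probe sets, and none passed. Probe set 1452751_at read 542 and 469 in co-culture, against 689 and 628 in OP9, 76.7% of it (95% interval 57.6 to 102%, adjusted p = 0.129 in limma). The others had log2 differences of -0.47 and -0.28 with adjusted p of 0.197 and 0.141. Without the NIH3T3 arrays 1452751_at and 1428349_s_at passed, at 0.037 and 0.00346, and 1460666_a_at did not, at 0.108. Probe sets ending in s_at can bind related transcripts, and the Ebf genes form a family of close sequence.

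Of the other transcription factors listed for reticular cells 16 were tested, and 1 was called higher and 1 lower in co-culture. Beside these and the list counts that follow, 2.44% of all probe sets were called higher and 2.93% lower. Cebpd, a factor of the acute phase and of early fat cell formation, rose 2.59-fold, and Cebpa, a factor of mature fat cells, fell 2.30-fold. The list median was -0.22. Of the other niche factors 12 of 32 were tested, 1 higher and 4 lower, with a median of -0.52. Ccn3, a matricellular protein, rose 5.01-fold. Igf1, which promotes growth of B-lymphoid cells, fell 2.76-fold to 1316 ± 80.6 in co-culture, against 3625 ± 3.35 in OP9 (SD, n = 2 each). Pleiotrophin, from Ptn, fell 2.43-fold and the Notch ligand gene Dll1 2.05-fold, though Dll1 entered the test through the OP9 arrays alone. The fourth, named after its value was seen, was Bmp4 at 2.04-fold lower. Of the surface and secreted genes of reticular and mesenchymal cells 17 were tested. The ferroxidase gene Cp was called higher, at 2.41-fold. Adipoq, a fat cell hormone gene that marrow reticular cells also express, was called lower at 30.7-fold, with the lipase gene Lpl and the collagen gene Col4a1. Of the receptors and partners of these ligands 4 of 15 were tested and 0 called in limma, with 2 of the 4, Ackr3 and Leprot, passing at less than 2-fold.

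**Figure D3:**
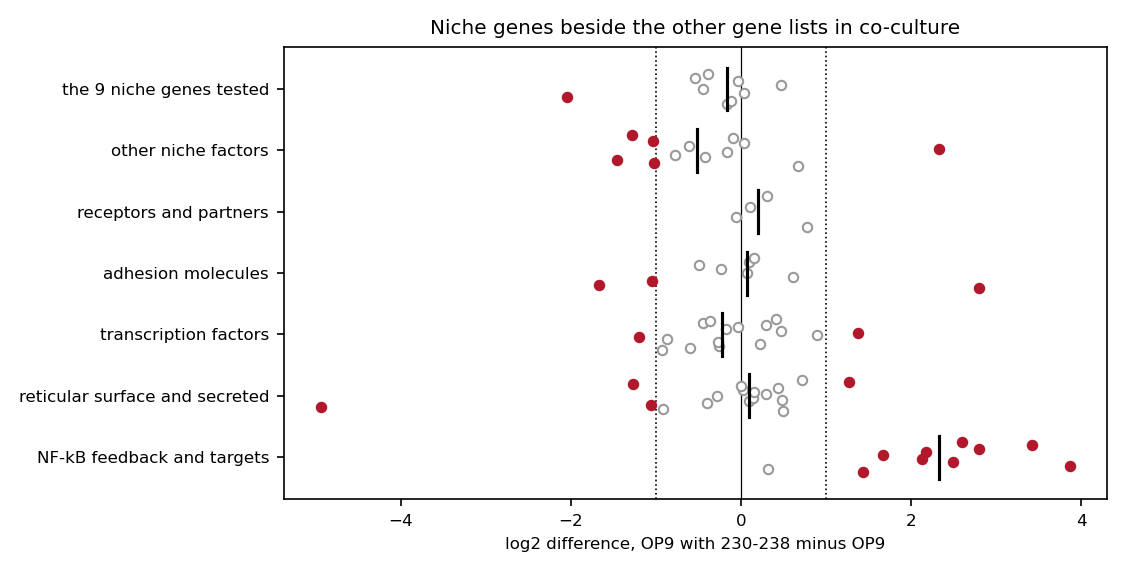
Log2 difference of OP9 with 230-238 minus OP9 for the 9 niche genes tested and 6 gene lists, with 1 circle per gene (its probe set with the highest mean), filled where called, a black bar at each median and dotted lines at 2-fold. The niche genes have a median of -0.16 and range from -2.04 (Il7) to 0.47 (Csf1), and the NF-kB genes lie on the higher side with a median of 2.33.

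Against the other lines Cxcl12, Angpt1, Foxc1 and Ebf1 were called higher in OP9 on every tested probe set in both comparisons, and Ebf3 on all 3 against MC3T3 and 2 of 3 against NIH3T3. Il7 and Vcam1 were called on every probe set against NIH3T3 and on none against MC3T3. Kitl was called on 1 of 4 against NIH3T3 alone, and Csf1 was called higher on none. In OP9 against NIH3T3 cells 19 of the 27 probe sets were called higher and 1 was called lower, beside 20.8% and 11.7% of all probe sets and 32.5% in either direction. Against MC3T3 14 were called higher and 1 lower, beside 10.4% and 9.61% and 20% in either direction. Of the 27, 4 reached 100 in co-culture and OP9 alone, namely 3 of Ebf1 and 1439084_at of Cxcl12, and so passed the filter only through the groups where they are high. Of the other 23, 15 were called higher against NIH3T3 and 10 against MC3T3. Passing at any size were 26 against NIH3T3, beside 76% of all, and 23 against MC3T3, beside 62.9%. The order of levels also rests on the remaining comparisons, in which 18 of the 27 were called in co-culture against NIH3T3 (31.1% of all), 16 in co-culture against MC3T3 (22.6%) and 15 in MC3T3 against NIH3T3 (29.6%). The median log2 difference of the 27 was 2.13 against NIH3T3 and 1.72 against MC3T3, and over all probe sets 0.15 and 0.02. Both comparisons use the same 2 OP9 arrays, as does the co-culture. Quantile normalization moved the median of all probe sets against NIH3T3 to 0.00 and median scaling to 0.21, so that differences of that size in this comparison have no settled sign.

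**Figure D4:**
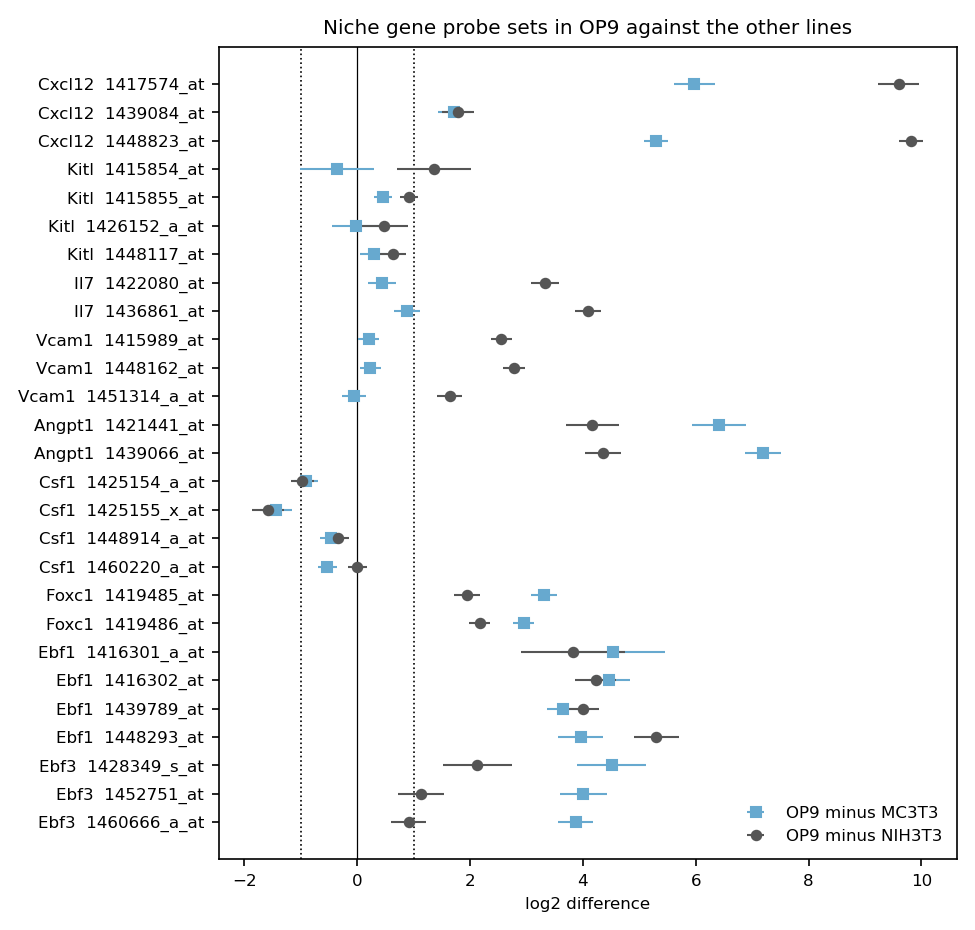
Log2 difference of OP9 minus MC3T3 (blue squares) and OP9 minus NIH3T3 (dark circles) for each of the 27 probe sets, with 95% intervals from limma and dotted lines at 2-fold. Cxcl12, Angpt1, Foxc1, Ebf1 and most of Ebf3 lie past 2-fold against both lines, Il7 and Vcam1 against NIH3T3 only, and Csf1 lies at or below 0.

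Ebf1 was higher in OP9 than in both other lines. All 4 of its tested probe sets were called against each, with 1448293_at at 2146 and 1922 in OP9, against 139 and 122 in MC3T3 and 43.7 and 60.5 in NIH3T3. This was 15.6-fold over MC3T3 (adjusted p = 1.33e-06 in limma) and 39.5-fold over NIH3T3 (2.17e-07). On the other 3 probe sets it was 12.5-fold to 23.1-fold over MC3T3 and 14.1-fold to 18.7-fold over NIH3T3. No array of either line reached 100 on those 3, so that they were tested only because they are high in OP9 and co-culture, and their calls are no support beside that of 1448293_at. In co-culture the level was still 10.7-fold over MC3T3 on 1448293_at.

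Foxc1 was higher in OP9 than in both lines, and NIH3T3 stood above MC3T3. Probe set 1419486_at read 3626 and 3881 in OP9, against 465 and 504 in MC3T3 and 848 and 817 in NIH3T3, so that OP9 was 7.75-fold over MC3T3 and 4.5-fold over NIH3T3. The second probe set gave 9.95-fold over MC3T3 and 3.86-fold over NIH3T3. The step between NIH3T3 and MC3T3 passed on both (adjusted p = 7.46e-05 and 1.27e-05 in limma).

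Ebf3 had the same order of lines, with a smaller distance to NIH3T3. Probe set 1452751_at read 689 and 628 in OP9, against 36.3 and 46.0 in MC3T3 and 350 and 257 in NIH3T3. It was 16.1-fold over MC3T3 and 2.19-fold over NIH3T3, and the second difference fell under 2-fold after quantile normalization (log2 difference 0.97) and without NIH3T3 replicate 2 (0.91). In MC3T3 no Ebf3 probe set reached 100, so that folds over MC3T3 are not firm in size. Among the other transcription factors listed, 7 of 16 were called higher in OP9 than in NIH3T3 and 3 lower, and 9 higher and 1 lower against MC3T3. Of all probe sets 20.8% were called higher and 11.7% lower against NIH3T3, and 10.4% and 9.61% against MC3T3. Zfp521 and Zfp423, zinc finger proteins known to bind EBF factors, were 38.9-fold and 32.4-fold over NIH3T3 and 20.7-fold and 2.75-fold over MC3T3. Cebpa was 48.0-fold and Snai2, a factor of mesenchymal cells, 40.8-fold over NIH3T3. Of these only Snai2 reached 100 in NIH3T3, at 164.3 and 143.5, while Zfp521 read 29.5 and 41.7, Zfp423 16.4 and 15.6 and Cebpa 41.0 and 28.5, below the array medians, and folds over such values are not firm in size. Zfp521 and Cebpa passed the filter only through OP9 and co-culture, where they are high. Their calls against the other lines were thus bound to the filter and are no support in the counts above.

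Among the factors, Cxcl12 and Angpt1 were far higher in OP9 than in both lines but ranked the lines differently. Cxcl12 probe set 1417574_at read 18981 and 18379 in OP9, against 312 and 283 in MC3T3 and 28.9 and 20.2 in NIH3T3. It was 62.8-fold over MC3T3 and 773-fold over NIH3T3, where the values lie below the array medians. On the dim 1439084_at OP9 was 3.29-fold over MC3T3 and 3.45-fold over NIH3T3, and these lines did not differ from each other beyond their spread (adjusted p = 0.64 in limma). Angpt1 on 1439066_at read 2921 and 2918 in OP9, against 18.6 and 21.3 in MC3T3 and 124 and 163 in NIH3T3. OP9 was 147-fold over MC3T3 and 20.5-fold over NIH3T3, and the second probe set gave 85.2-fold and 17.9-fold. Values this low lie near background, and folds against them are not firm in size. Among the other niche factors 7 of 12 tested were called higher in OP9 than in NIH3T3 and 0 lower in limma, led by Ptn, Igf1, Gas6 and Hgf. Of all probe sets 20.8% were called higher in that comparison and 11.7% lower. Gas6, a ligand of the TAM receptor kinases, was at 4829 ± 52.1 in OP9 and 75.0 ± 11.1 in NIH3T3 (SD, n = 2 each), a 64.7-fold difference. Ptn averaged 4426 in OP9 and 11.9 in NIH3T3, Igf1 3625 in OP9 and 21.7 in NIH3T3, and Hgf, the ligand of MET, 556.3 in OP9 and 17.4 in NIH3T3. All of these NIH3T3 values but those of Gas6 lay below the array medians. Hgf passed the filter only through OP9 and co-culture, and Dll1 of the same list only through OP9, so that a call of either as higher in OP9 was bound to the filter.

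Il7 and Vcam1 separated OP9 from NIH3T3 and much less from MC3T3. Il7 was 17.0-fold and 10.0-fold over NIH3T3 on its 2 probe sets, and 1.85-fold and 1.35-fold over MC3T3, where both passed (adjusted p = 0.000181 and 0.00944 in limma) without reaching 2-fold. That of the second, 1422080_at, was 0.0652 without OP9 replicate 2 and 0.059 without MC3T3 replicate 1. Vcam1 was 6.86-fold, 5.87-fold and 3.12-fold over NIH3T3 on its 3 probe sets. Against MC3T3 only 1448162_at passed, at 1.18-fold (adjusted p = 0.0367). It did not pass in 9 of 20 alternatives, with 0.101 to 0.132 without each of the 4 arrays compared and a highest value of 0.176 with the mean over the gene's probe sets. The log2 differences of the other 2 were 0.20 and -0.06.

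Kitl was higher in OP9 than in NIH3T3 on all 4 probe sets, mostly by under 2-fold, and no Csf1 probe set passed as higher in OP9 than in either line. Kitl 1415855_at read 4578 and 4528 in OP9, against 3424 and 3226 in MC3T3 and 2410 and 2398 in NIH3T3. It was 1.37-fold over MC3T3 and 1.89-fold over NIH3T3, which passed without being called. Against NIH3T3 1448117_at and 1426152_a_at also passed (adjusted p = 0.000732 and 0.0413), the second of them in 5 of 16 alternatives. Against MC3T3 1448117_at passed at a log2 difference of 0.29 (adjusted p = 0.0361), which was lost in 7 of 18 alternatives, with 0.218 without OP9 replicate 2 and 0.175 without MC3T3 replicate 2. As the mean of the gene's probe sets Kitl differed from MC3T3 by 0.09 (adjusted p = 0.575). The 1 Kitl probe set called was 1415854_at against NIH3T3, at 2.57-fold, and its log2 difference was 0.87 without NIH3T3 replicate 1. On that probe set MC3T3 was above OP9 by a difference that did not pass (adjusted p = 0.293). Csf1 was lower in OP9 than in MC3T3 on all 4 probe sets (log2 differences -0.53, -0.47, -0.90 and -1.43), and all 4 passed. Against NIH3T3 it ranged from 0.00 on 1460220_a_at (95% interval -0.17 to 0.17) to -1.58 on 1425155_x_at, the 1 called in both comparisons. Its 1425154_a_at was just short of 2-fold against NIH3T3, at -0.97.

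Lepr, by which adult marrow reticular cells are often recognised, was near the bottom of the scale in all groups. Probe set 1425875_a_at averaged 24.4 ± 0.085 in co-culture, 21.4 ± 3.08 in OP9, 20.0 ± 1.75 in MC3T3 and 22.8 ± 6.58 in NIH3T3 (SD, n = 2 each). All 32 values of its 4 probe sets lay between 8.2 and 27.5, below the median of each array. None was tested, and a level this low does not show that the transcript is absent. Leprot, which shares its first exons with Lepr and is a separate gene product, was at 1054 ± 4.78 in co-culture and 853 ± 10.4 in OP9 (SD, n = 2 each).

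The genes whose profile over the 8 arrays lay nearest to each of the 9 were found among 10100 genes by the root mean square difference of log2 values centred on their mean. The points share the arrays and their 4 groups, and no test was made. Nearest to Ebf1 were Cdo1 (0.184 log2 units), Zfp521 (0.279) and Hgf (0.32). For Il7 they were Myl9 (0.206), Klhl23 (0.30) and Slc24a3 (0.344), and for Foxc1 Sox5 (0.166), Rasl11b (0.191) and Fam102a (0.205). Ebf3 was nearest to Sox4 (0.197), Tns1 (0.201) and Elavl2 (0.256). Nearest to Csf1 were App (0.039), Morc3 (0.073) and Sertad2 (0.077). Kitl was nearest to Sh3gl1 (0.043), 2010320M18Rik (0.05) and Nus1 (0.052), and Vcam1 to Mzt1 (0.089), Rcn2 (0.092) and Smarcd2 (0.108). The profiles of Cxcl12 and Angpt1 span many doublings, and their nearest genes were farther off, Cyp1b1 at 0.561 and Tmem86a at 0.695.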

How the data were processed

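Gene expression was measured on 8 arrays, 2 for each of 4 groups named by the sample labels. The authors deposited background-corrected and normalized intensity values on a linear scale. RMA Express, affylmGUI and dChip appear in the methods, without word on which of them gave the table. Probe sets were named through the platform annotation, in which 34958 had 1 symbol, 932 several and 9211 none, and those with several were left unnamed. A gene's leading probe set had the highest mean over the arrays. No column was left out.

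The 64 array controls were removed, and the 18656 probe sets that reached 100 on 2 or more arrays were taken to log2 with no pseudocount. The 4 group means were fitted with lmFit and eBayes of limma 3.58.1 in R 4.3.3, with 4 residual degrees of freedom, and the Benjamini-Hochberg adjustment ran over all of them. The number of arrays limits the precision. The model was tested on simulated data.

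The 10 genes and the 13 lists, with 160 of 173 list genes measured, were chosen with earlier results of these data known. Named beside the 10 were up to 4 called genes of each list with the largest change in co-culture, the same for niche factors and transcription factors in OP9 against NIH3T3, and 3 nearest profiles per gene. Alternatives were other filters, a trend and robust prior, quantile and median scaling, a replicate block, a pseudocount of 16, a fit of the 4 arrays compared, other rules for probe sets, no minimum fold and each array left out. Motifs were searched in the RefSeq promoter windows.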

Additional observations from a re-analysis of the deposited data

How the results depend on the processing

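The 2 Il7 probe sets called in co-culture stayed 2 in every fit on all 27 probe sets, from 2 to 2 without each array in turn. They were 1 with a filter at 200, with 1 probe set a gene and with the mean over a gene's probe sets, since these leave a single Il7 value, and 11 with no minimum fold. Over all probe sets 972 to 1020 were called in co-culture without each array, 578 with 1 probe set a gene, 463 with the mean and 6991 with no minimum fold. In OP9 against NIH3T3 19 to 21 of the 27 were called and 5916 to 6354 of all. The niche genes called were 7 with 1 probe set a gene and 7 with the mean, and over all 3147 and 2612, and 14170 with no minimum fold. In OP9 against MC3T3 these were 15 to 15 of the 27 and 3732 to 3802 of all, then 5 and 5 niche genes, 2034 and 1724 over all, and 23 and 11731 with no minimum fold. Co-culture against NIH3T3 had 18 to 19 of the 27 (6 with 1 probe set a gene, 7 with the mean), co-culture against MC3T3 16 to 17 (6 and 6) and MC3T3 against NIH3T3 15 to 16 (6 and 6).

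The replicate numbers do not pair the arrays: the differences between replicates 1 and 2 correlated by 0.027 to 0.162 between groups. With the replicate number as a block the 27 gave 2 calls in co-culture, 20 in OP9 against NIH3T3 and 15 in OP9 against MC3T3. The reversed signs were all of differences near 0. In co-culture Foxc1 1419485_at was -0.001 without co-culture replicate 2 (highest 0.123 without replicate 1), and 1419486_at was 0.002 after quantile normalization, 0.015 without OP9 replicate 2 (-0.083 without replicate 1) and 0.013 as the mean of its probe sets. In OP9 against NIH3T3 Csf1 1460220_a_at was 0.06 with median scaling, 0.052 without OP9 replicate 1 (-0.058 without replicate 2) and 0.009 without NIH3T3 replicate 2. In OP9 against MC3T3 Kitl 1426152_a_at was 0.018 without OP9 replicate 1 and 0.09 without MC3T3 replicate 1 (-0.134 without replicate 2), and Vcam1 1451314_a_at 0.026 without OP9 replicate 1 and 0.027 without MC3T3 replicate 2 (-0.14 without replicate 1). Csf1 1425154_a_at passed 2-fold against NIH3T3 after quantile normalization (-1.11) and without OP9 replicate 1 (-1.002) or NIH3T3 replicate 1 (-1.08). The causes were not tested. Values near the background limit what can be said of Lepr in all groups and, in NIH3T3, of Il7, Cxcl12, Zfp521, Zfp423, Cebpa, Ptn, Igf1 and Hgf. The same holds for Angpt1 and Ebf3 in MC3T3, for Ebf1 in NIH3T3 and for Il7 1422080_at in co-culture. It also holds in MC3T3 for the Ebf1 probe sets other than 1448293_at.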
